A study of Mus musculus with 19 samples.

Results

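The 10 circadian clock genes examined here were *Per1*, *Per2*, *Per3*, *Cry1*, *Arntl*, *Clock*, *Nr1d1*, *Nr1d2*, *Dbp* and *Tef*, found by their symbols among the 53558 genes of the count tables. All 10 were among the 13986 genes that passed the filter on low counts. RNA was sequenced from neoplastic cells of mouse lung tumors in 19 libraries. Mice of all groups alike carried a Cre-dependent tdTomato reporter, R26LSL-tdTomato, and Cre-dependent Cas9, H11LSL-Cas9. Tumors were initiated by a lentiviral vector given into the trachea, which carries Cre and sgRNAs. Cells that express Cre thereby express Cas9, and the sgRNAs act in the same cells. The 7 sgInert libraries received control sgRNAs (sgNeo1, sgNT and sgNeo2), the 7 sgCebpa/b/d libraries received sgRNAs against *Cebpa*, *Cebpb* and *Cebpd*, and the 5 sgLkb1 libraries received an sgRNA against *Lkb1*, whose mouse symbol is *Stk11*. Tumors grew for 17 weeks and were micro-dissected and dissociated, and tdTomato-positive cells negative for CD45, CD31, F4/80 and Ter119 were sorted. Mice were 6 to 12 weeks old when tumors were initiated, as stated for the study's lung tumor models in general. The time of day at which tumors were taken is not given in the sources used here.

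Library titles fall into 3 series. Titles with an animal number that starts with MT belong to 3 sgInert, 4 sgCebpa/b/d and 3 sgLkb1 libraries. Titles with a number that starts with ZR belong to 4 libraries, all of them sgInert. The other 5 titles carry a code without an animal number (3 sgCebpa/b/d and 2 sgLkb1 libraries, called unnumbered below), and what the code stands for is not stated. Only the MT series is present in all 3 virus groups, so virus and title series are partly confounded. The MT libraries came from 2 animals in each group, since 2 sgInert, 3 sgCebpa/b/d and 2 sgLkb1 libraries share an animal number, and n counts libraries throughout. Sex also moves with the series. All sgLkb1 libraries were female, the sgCebpa/b/d libraries were female in the MT series and male where unnumbered, and the sgInert libraries were male in 1 of 3 MT and 3 of 4 ZR libraries.

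The mammalian clock is a feedback loop of transcription that turns over about once a day in most cells, lung epithelium included. ARNTL (also called BMAL1) and CLOCK form a dimer that binds E-box sequences and switches on the *Per* and *Cry* genes, whose proteins then accumulate and repress the dimer. The same dimer switches on *Nr1d1* and *Nr1d2*, which encode the nuclear receptors REV-ERBα and REV-ERBβ, repressors of *Arntl* that act at ROR response elements. It also switches on *Dbp* and, in many tissues, *Tef*, whose PAR bZIP proteins act on D-box sequences of further genes. In a tissue taken at one hour, *Arntl* is therefore typically low when *Dbp* and the *Per* genes are high, and the phase of the loop is read from such pairs.

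Promoter sequences show where these elements stand in the genes that follow. RefSeq promoter windows (250 bases before to 50 after a start site, GRCm38.p6) were at hand for 9 of the 10 genes, in 14 windows, and the window of *Per2* was not analysed here. Windows were searched on both strands for the E-box CACGTG, the E′-box CACGTT, the D-box TTATGTAA or TTACGTAA, the ROR element core TAGGTCA or TGGGTCA, the cAMP response element TGACGTCA and the C/EBP motif TTGCNNAA. Of 32851 mouse promoter windows of this length, 7.15% held the E-box, 4.68% the E′-box, 1.06% the D-box, 6.45% the ROR element core, 1.79% the cAMP response element and 10.8% the C/EBP motif. The stretches below are a choice of those that hold a clock element, 1 per gene, given 5′ to 3′ on the strand of the gene in lower case with the matched element in capitals.
*Per1* (chr11:69098753-69098818, plus strand, in the gene body upstream of an internal start, E-box): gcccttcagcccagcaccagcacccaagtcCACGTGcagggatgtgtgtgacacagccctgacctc
*Tef* (chr15:81811246-81811311, plus strand, in the gene body upstream of an internal start, E-box): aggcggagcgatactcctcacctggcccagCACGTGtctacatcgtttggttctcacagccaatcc
*Cry1* (chr10:85185079-85185163, minus strand, upstream of the gene, E′-box on the opposite strand and E-box): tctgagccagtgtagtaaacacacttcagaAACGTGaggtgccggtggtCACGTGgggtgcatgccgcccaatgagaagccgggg
*Nr1d1* (chr11:98775378-98775435, minus strand, upstream of the gene, E′-box on the opposite strand): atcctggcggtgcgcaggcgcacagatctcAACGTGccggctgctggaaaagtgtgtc
*Per3* (chr4:151044786-151044900, minus strand, upstream of the gene, D-box at 2 places): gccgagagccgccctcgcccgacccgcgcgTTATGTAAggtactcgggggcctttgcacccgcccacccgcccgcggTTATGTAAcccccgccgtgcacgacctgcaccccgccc
*Arntl* (chr7:113207529-113207558, plus strand, in an exon just after a start site, ROR element core): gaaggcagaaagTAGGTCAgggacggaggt

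*Tef* held the E-box in both of its windows, *Per1* in 1 of 2 and *Cry1* in its only window. A C/EBP match stood in 1 window of *Per1* and in that of *Nr1d1*, and the windows of *Dbp*, *Nr1d2* and *Clock* held no match to any of these motifs. In the GENCODE annotation of GRCm38 the 10 genes lie on 8 chromosomes. The repressor arm genes are at chr11:69095217-69109960 (*Per1*, plus strand), chr1:91415982-91459324 (*Per2*, minus), chr4:151003652-151044665 (*Per3*, minus) and chr10:85131700-85185064 (*Cry1*, minus). The activators are at chr7:113207465-113314126 (*Arntl*, plus) and chr5:76209868-76304792 (*Clock*, minus), the REV-ERB genes at chr11:98767932-98775333 (*Nr1d1*, minus) and chr14:18204054-18239127 (*Nr1d2*, minus), and the PAR bZIP genes at chr7:45705088-45710203 (*Dbp*, plus) and chr15:81802421-81826863 (*Tef*, plus). A match describes these letters only and does not show that a factor binds there.

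Genes differed in level. On the deposited TPM scale, which divides by gene length, the medians over 19 libraries ran from 66.5 for *Nr1d2*, 38.3 for *Nr1d1* and 36.9 for *Clock*, through 20.4 for *Tef*, 14.7 for *Dbp*, 14.2 for *Per2* and 10.9 for *Per1*, down to 9.93 for *Per3*, 8.93 for *Arntl* and 7.57 for *Cry1*. Neighbours in this order had overlapping ranges over the 19 libraries in every case. *Dbp* ran from 1 to 38.5 TPM and *Nr1d1* from 24.4 to 77.8 TPM, so that a single library can change the order. All further levels are CPM, counts scaled to library size by TMM, which compare libraries for a given gene and not genes with each other. The least counted member was *Dbp*, with 5 to 202 counts per library, and *Clock* had 571 to 1846.

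Libraries held 2760731 to 9944134 estimated counts (median 6028922). *Stk11* was lower in every sgLkb1 library (7.53 to 12.5 CPM) than in every sgInert library (19.5 to 22.9 CPM), with a log2 fold change of -1.24 (SE 0.17, edgeR adjusted p = 0.000107). Transcript levels of the *Cebp* genes do not check the sgCebpa/b/d label, since small insertions and deletions need not lower a transcript, and *Cebpa* was higher in sgCebpa/b/d than in sgInert (log2 fold change 0.73, edgeR adjusted p = 0.00148). Markers of alveolar type II (ATII) cells, the epithelial cells from which such tumors are thought to arise, summed to 32300 to 69800 CPM over 8 genes. Red blood cell markers summed to 0 to 2.7 CPM over 3 genes and ciliated cell markers to 3.46 to 12.2 CPM over 3 genes. *Ptprc*, which encodes CD45, ran from 0 to 4.66 CPM in numbered and from 7.72 to 44.3 CPM in unnumbered libraries, although the sort selected against CD45. These unnumbered libraries stand apart, and results are given with and without them.

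The virus groups were compared over all 19 libraries to ask whether the clock genes differ with the loss of LKB1 or of the C/EBP factors. No clock gene passed the threshold, an edgeR quasi-likelihood p under 0.05 after Benjamini-Hochberg adjustment over all 13986 genes. In sgCebpa/b/d against sgInert, 0 of 10 clock genes passed, where 10.1% of all genes tested did. In sgLkb1 against sgInert, 0 of 10 passed against 5.78% of all genes, and in sgCebpa/b/d against sgLkb1, 0 of 10 against 5.96%. Groups overlapped for every clock gene in all 3 comparisons, while the groups of 3.37%, 4.15% and 5.08% of all genes did not overlap. At an unadjusted p under 0.05 the counts were 1, 1 and 0, and with DESeq2 0, 1 and 0 passed. The share of all genes was not taken under these rules. Comparisons with sgInert share its 7 libraries and are not independent of each other.

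*Per1*, a core repressor that is also induced quickly by stress hormones and other signals, had the largest difference from sgInert in both targeted groups. It ran from 11.2 to 41.5 CPM (median 14.2) in sgInert, from 18.5 to 48 CPM (median 27.7) in sgCebpa/b/d and from 25.8 to 62 CPM (median 41.7) in sgLkb1. The groups overlap, and the lowest values are those of the MT-numbered sgInert libraries. Its log2 fold change was 1.06 (SE 0.34, unadjusted p = 0.0049, edgeR adjusted p = 0.07) in sgLkb1 and 0.71 (SE 0.31, edgeR adjusted p = 0.173) in sgCebpa/b/d. *Per1* passed in sgLkb1 with DESeq2, without the filter, with limma on TPM, with sex or title series in the model and among MT libraries, which is 6 of 12 alternatives. The alternatives with title series and among MT libraries both take the sgInert level from its MT libraries and are not independent.

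The other members lay closer together. In sgCebpa/b/d against sgInert the log2 fold changes ran from -0.47 for *Cry1*, a repressor and partner of the PER proteins, to 0.67 for *Per2*, and the median over the 10 genes was 0.22 against 0.02 over all genes. In sgLkb1 against sgInert they ran from -0.23 for *Clock* to 0.4 for *Per2*, leaving out *Per1*, and the median was 0.07 against -0.01. The standard errors were large for the genes that vary most between libraries, at 0.64 and 0.7 for *Dbp* and 0.52 and 0.55 for *Arntl* in these comparisons. Between sgCebpa/b/d and sgLkb1 the log2 fold changes ran from -0.54 for *Cry1* to 0.63 for *Tef*, with a median of 0.11 against 0.03.

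**Figure D1:**
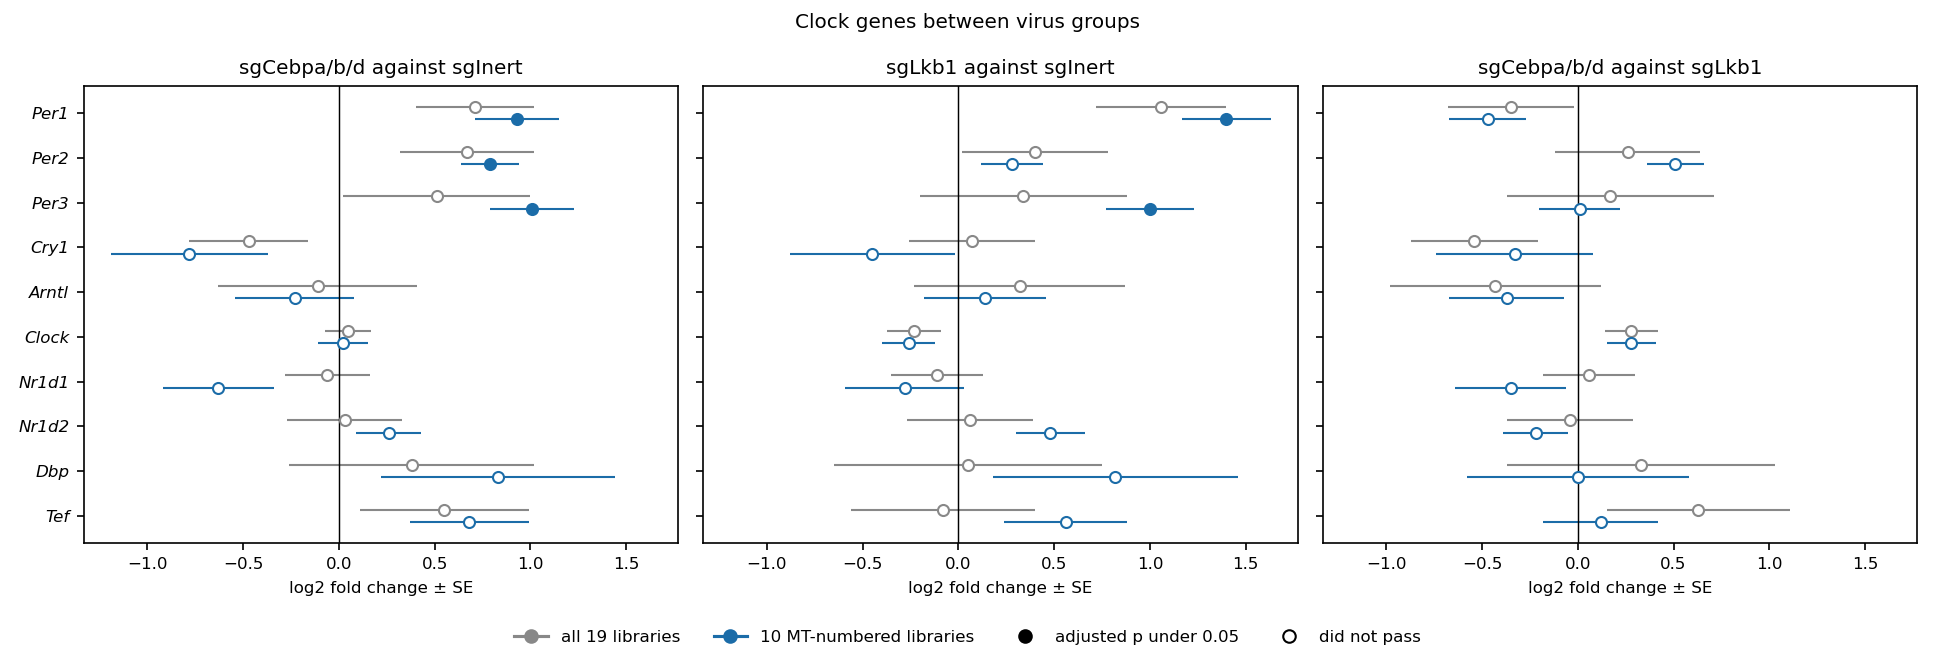
Log2 fold changes with standard errors of the 10 clock genes in the 3 comparisons between virus groups, fitted over all 19 libraries (grey) and over the 10 MT-numbered libraries (blue); filled points passed at an adjusted p under 0.05. None of the grey points is filled, and the filled blue points are *Per1*, *Per2* and *Per3* in sgCebpa/b/d and *Per1* and *Per3* in sgLkb1, each against sgInert.

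Within a virus group, most clock genes separated by title series. In sgInert, 6 clock genes were higher and 1 was lower in the ZR than in the MT libraries, where 1.36% of all genes were higher and 0.779% lower (2.14% in all). In sgCebpa/b/d, the same 6 genes were higher and the same 1 was lower in the unnumbered than in the MT libraries, where 4.29% of all genes were higher and 3.88% lower (8.17% in all). In sgLkb1, 2 of these genes were higher and 0 lower in the unnumbered libraries, where 0.143% of all genes were higher and 0.0358% lower (0.179% in all). The genes higher in both larger groups were *Per1*, *Per2*, *Per3*, *Nr1d2*, *Dbp* and *Tef*, and the gene lower was *Arntl*. The series did not overlap for 7 of 10 clock genes in sgInert, 7 of 10 in sgCebpa/b/d and 8 of 10 in sgLkb1, against 11.3%, 22.2% and 24.1% of all genes tested.

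**Figure D2:**
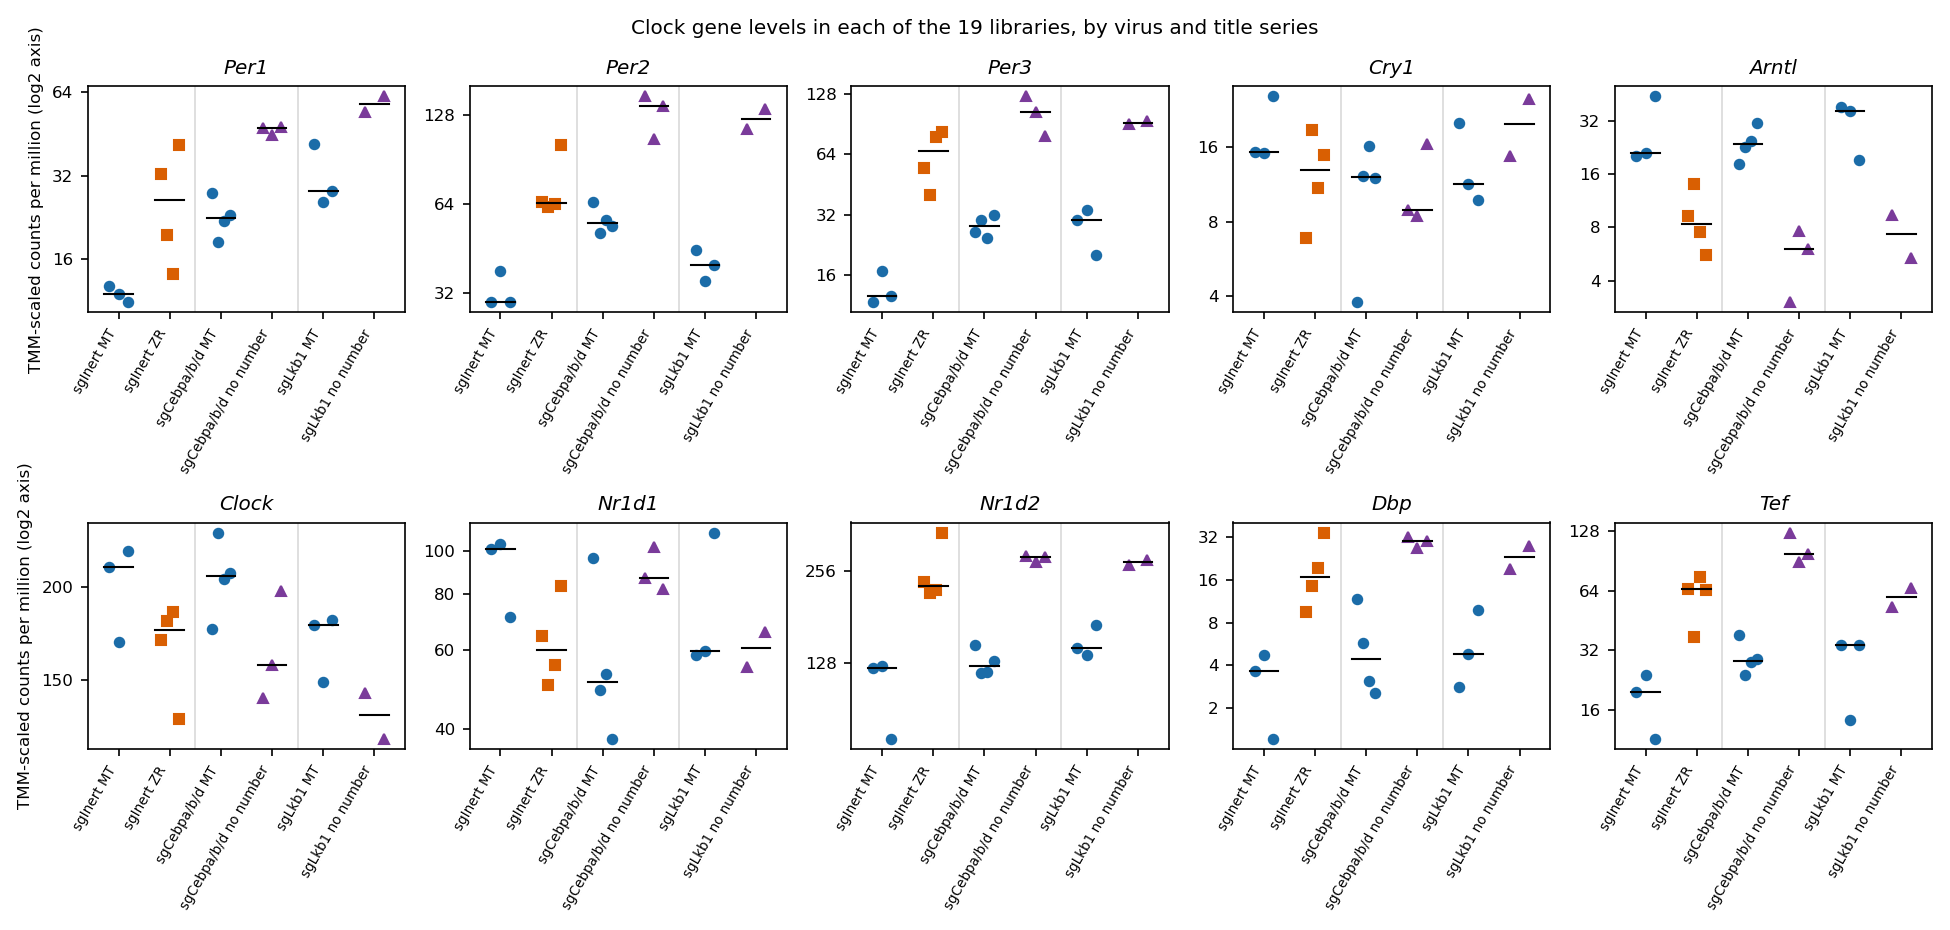
CPM of each clock gene (log2 axis) in each of the 19 libraries, split by virus and title series, with MT libraries as circles, ZR as squares, unnumbered ("no number") as triangles and the median as a line. In each virus group the MT libraries lie below the others for *Per1*, *Per2*, *Per3*, *Nr1d2*, *Dbp* and *Tef* and above them for *Arntl*.

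In the repressor arm the *Per* genes differed between series, and *Cry1* did not pass. *Per3* had 11.8, 12.7 and 16.8 CPM in the MT and 40.2, 54.6, 78.3 and 82 CPM in the ZR libraries of sgInert. The sgCebpa/b/d libraries had 24.6, 26.3, 30 and 32 CPM in MT and 79, 104 and 124 CPM in unnumbered libraries. In sgLkb1 it had 20.3, 30.3 and 33.7 CPM in MT and 90.1 and 93.1 CPM in unnumbered libraries. All 9 ZR and unnumbered libraries lie above all 10 MT libraries for this gene. The log2 fold changes were 2.2 (SE 0.25, edgeR adjusted p = 0.000148), 1.86 (SE 0.23, edgeR adjusted p = 7.14e-05) and 1.71 (SE 0.27, edgeR adjusted p = 0.00585).

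*Per2*, which like *Per1* encodes a repressor that binds the CRY proteins, had 29.9, 30 and 38.2 CPM in the MT and 62.8, 64.1, 65.2 and 101 CPM in the ZR libraries of sgInert. It had, in sgCebpa/b/d, 51, 54.1, 56.7 and 65.1 CPM in MT and 106, 137 and 148 CPM in unnumbered libraries. The sgLkb1 libraries had 35.3, 39.9 and 45 CPM in MT and 115 and 134 CPM in unnumbered libraries. Unnumbered libraries were the highest, and within each virus group the series do not overlap. Its log2 fold changes were 1.16 (SE 0.18, edgeR adjusted p = 0.0019), 1.2 (SE 0.17, edgeR adjusted p = 0.000313) and 1.63 (SE 0.2, edgeR adjusted p = 0.000691).

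*Per1* had 11.2, 12 and 12.8 CPM in the MT and 14.2, 19.6, 32.6 and 41.5 CPM in the ZR libraries of sgInert. It had 18.5, 21.9, 23.1 and 27.7 CPM in MT and 44.8, 47.8 and 48 CPM in unnumbered sgCebpa/b/d libraries. For sgLkb1 the values were 25.8, 28.3 and 41.7 CPM in MT and 54.2 and 62 CPM in unnumbered libraries. The 4 ZR libraries are spread widely, and the lowest of them is close to the MT libraries. The log2 fold changes were 1.16 (SE 0.28, edgeR adjusted p = 0.0359), 1.03 (SE 0.26, edgeR adjusted p = 0.0192) and 0.87 (SE 0.3, edgeR adjusted p = 0.566), the last of which did not pass.

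*Cry1* overlapped between series in every virus group. Its CPM was 15.2, 15.3 and 25.8 in MT against 6.89, 11, 14.9 and 18.9 in ZR libraries of sgInert, 3.78, 12, 12.3 and 16.3 in MT against 8.46, 8.95 and 16.6 in unnumbered libraries of sgCebpa/b/d, and 9.83, 11.4 and 20.2 in MT against 14.8 and 25.2 in unnumbered libraries of sgLkb1. It is one of the least counted members (26 to 173 counts per library), and its log2 differences of -0.52, 0.05 and 0.54 had standard errors of 0.42, 0.43 and 0.49.

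In the activator arm, *Arntl* moved against the *Per* genes. It had 20.2, 20.9 and 43.8 CPM in the MT and 5.59, 7.56, 9.28 and 14 CPM in the ZR libraries of sgInert. The sgCebpa/b/d libraries had 18.2, 22.8, 24.4 and 31 CPM in MT and 3.04, 6.02 and 7.61 CPM in unnumbered libraries. In sgLkb1 it had 19.1, 36.2 and 38.3 CPM in MT and 5.39 and 9.35 CPM in unnumbered libraries. Every one of the 10 MT libraries lies above every one of the other 9. The log2 fold changes were -1.62 (SE 0.37, edgeR adjusted p = 0.0238) and -2.11 (SE 0.4, edgeR adjusted p = 0.00272) in sgInert and sgCebpa/b/d. In sgLkb1, with 2 unnumbered libraries, *Arntl* differed by -2.07 (SE 0.46, edgeR adjusted p = 0.091) and did not pass.

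*Clock*, which encodes the partner of ARNTL and which varies little over the day in many tissues, had the narrowest range of all members. It ran from 125 to 237 CPM over the 19 libraries. It had 169 to 224 CPM in MT and 133 to 185 CPM in ZR libraries of sgInert, 176 to 237 CPM in MT and 142 to 198 CPM in unnumbered libraries of sgCebpa/b/d, and 149 to 181 CPM in MT and 125 to 144 CPM in unnumbered libraries of sgLkb1. Its log2 differences of -0.27, -0.32 and -0.33 point the way *Arntl* does, and none of them passed (edgeR adjusted p = 0.381, 0.198 and 0.899).

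The REV-ERB genes did not move alike. *Nr1d2* had 72.3, 123 and 125 CPM in the MT and 218, 222, 236 and 343 CPM in the ZR libraries of sgInert. It had 119, 120, 130 and 147 CPM in MT and 275, 286 and 288 CPM in unnumbered sgCebpa/b/d libraries. The sgLkb1 libraries had 136, 143 and 171 CPM in MT and 269 and 280 CPM in unnumbered libraries. The MT libraries of all 3 groups lie at 171 CPM or less and all others at 218 CPM or more. Its log2 fold changes were 1.25 (SE 0.18, edgeR adjusted p = 0.0014), 1.13 (SE 0.17, edgeR adjusted p = 0.000456) and 0.87 (SE 0.2, edgeR adjusted p = 0.102).

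*Nr1d1*, its close relative, had 71.1, 101 and 104 CPM in the MT and 50.2, 55.6, 64.7 and 83.6 CPM in the ZR libraries of sgInert. It had 38, 48.9, 53.1 and 96.8 CPM in MT and 82.1, 87.1 and 102 CPM in unnumbered sgCebpa/b/d libraries. For sgLkb1 the values were 58.6, 59.6 and 110 CPM in MT and 55.1 and 66 CPM in unnumbered libraries. The series overlap in each virus group, and the differences do not share a direction. They were -0.54 (SE 0.27), 0.6 (SE 0.27) and -0.33 (SE 0.32) on the log2 scale, with edgeR adjusted p = 0.351, 0.188 and 0.99. The annotated exons of *Nr1d1* share 263 bases with those of *Thra* on the other strand, and *Thra* had 6.76 to 20 CPM. The log2 differences of *Thra* between series were -0.76, 0.52 and -0.43, of the same signs as those of *Nr1d1*, and none of them passed (edgeR adjusted p = 0.18, 0.278 and 0.966). Among MT libraries *Thra* passed as lower in sgCebpa/b/d against sgInert (log2 -0.82, SE 0.23, edgeR adjusted p = 0.0421), where *Nr1d1* differed by -0.63 (SE 0.29) and did not pass (edgeR adjusted p = 0.232). Whether counting used the strand is not given in the sources used here.

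Of the PAR bZIP genes, *Dbp* had the widest range in log2 CPM of all members within each virus group. It had 1.22, 3.64 and 4.77 CPM in the MT and 9.54, 14.5, 19.4 and 34.5 CPM in the ZR libraries of sgInert. It had 2.54, 3.13, 5.79 and 11.8 CPM in MT and 26.9, 30.4 and 32.3 CPM in unnumbered sgCebpa/b/d libraries. In sgLkb1 it had 2.82, 4.85 and 9.83 CPM in MT and 19.2 and 27.7 CPM in unnumbered libraries. Within each virus group the series do not overlap, while 1 MT library each of sgCebpa/b/d and sgLkb1 exceeds the lowest ZR library. Fold changes were 5.79 (log2 2.53, SE 0.56, edgeR adjusted p = 0.0225), 4.98 (log2 2.31, SE 0.5, edgeR adjusted p = 0.00751) and 3.92 (log2 1.97, SE 0.58, edgeR adjusted p = 0.317). *Dbp* shares 539 exonic bases with *Sphk2* on the other strand, and *Sphk2* had 6.94 to 18.7 CPM and log2 differences of -0.16, 0.08 and -0.37, none of which passed.

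*Tef* had 11.4, 19.7 and 23.9 CPM in the MT and 37.5, 64.3, 65.7 and 75.4 CPM in the ZR libraries of sgInert. It had 23.9, 27.9, 28.8 and 38 CPM in MT and 90, 98.7 and 126 CPM in unnumbered sgCebpa/b/d libraries. The sgLkb1 libraries had 14.1, 34 and 34.2 CPM in MT and 52.8 and 66 CPM in unnumbered libraries. Its order of series within each virus group is that of *Dbp*, with a smaller range in log2 CPM. The log2 fold changes were 1.71 (SE 0.3, edgeR adjusted p = 0.00564), 1.81 (SE 0.28, edgeR adjusted p = 0.000591) and 1.11 (SE 0.33, edgeR adjusted p = 0.326).

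**Figure D3:**
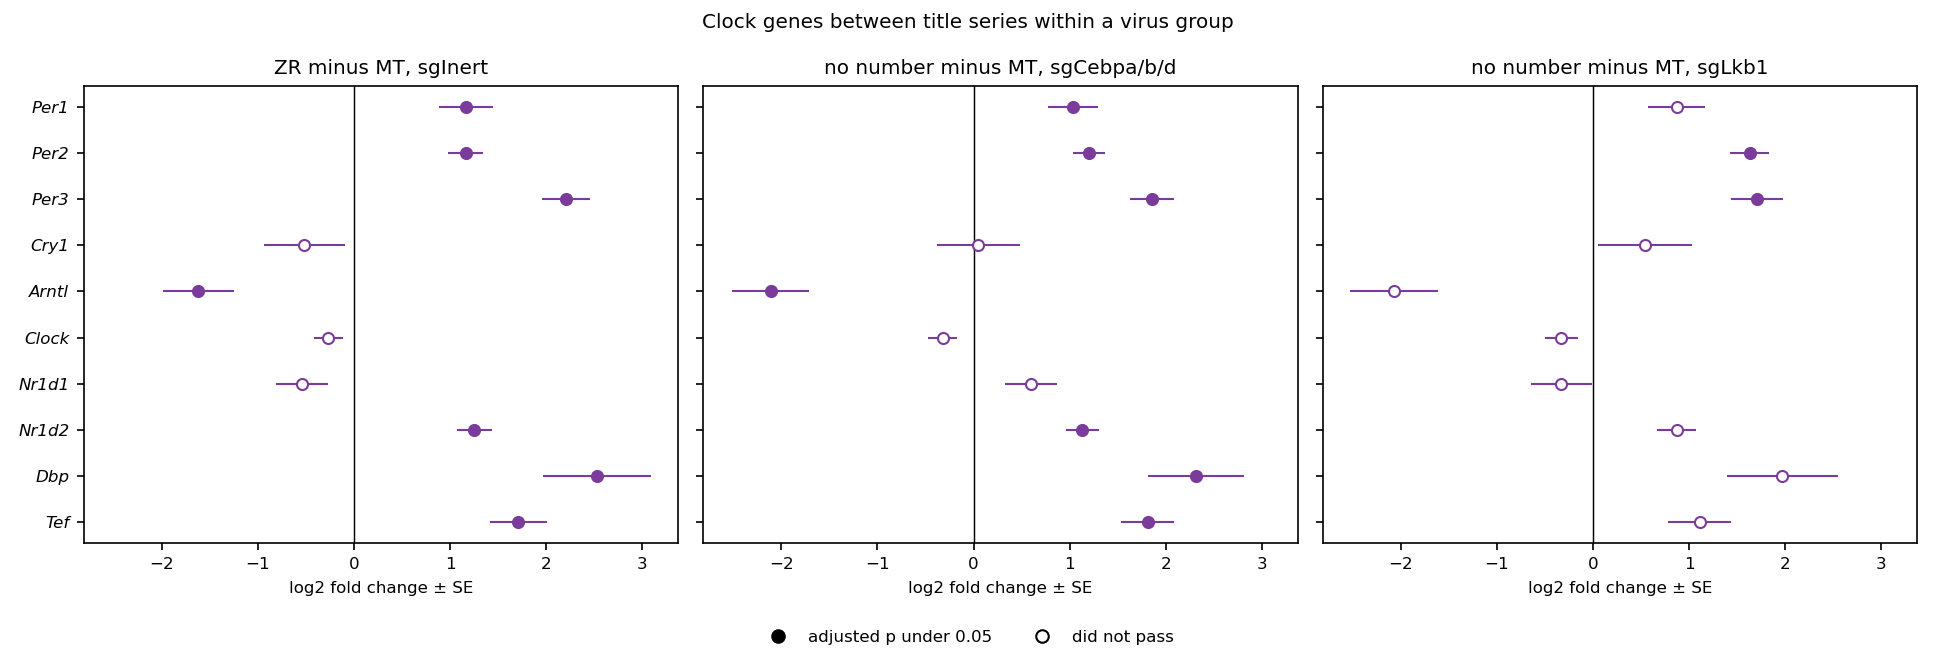
Log2 fold changes with standard errors of the 10 clock genes between title series, within sgInert (ZR minus MT), sgCebpa/b/d and sgLkb1 (unnumbered minus MT); filled points passed at an adjusted p under 0.05. In each panel *Dbp* lies farthest to the right and *Arntl* farthest to the left, and 7, 7 and 2 points are filled.

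Unnumbered minus MT differences were set against each other in the 2 targeted groups by an interaction term. It passed for 0 of 10 clock genes, where 0.136% of all genes passed. The lowest unadjusted p was that of *Nr1d1*, which differed by 0.93 on the log2 scale (SE 0.42, unadjusted p = 0.0401, edgeR adjusted p = 0.449). All 5 sgLkb1 libraries were female, so the differences of *Per2* and *Per3* between its series lie among female libraries, whereas in sgCebpa/b/d sex and title series cannot be told apart.

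Counts of clock genes that passed depended on single libraries or animals in places. In sgInert the 7 fell to 4 without replicate 5 or without replicate 7, which are 2 of the 3 MT libraries, and to 4 with libraries of an animal summed. In sgLkb1 the 2 fell to 1 without replicate 1 or replicate 5, the unnumbered libraries, or with animals summed, and rose to 4 without sgInert replicate 7. The sgCebpa/b/d count was 6 to 8 when any library was left out.

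*Dbp* and *Arntl* read together set the MT libraries apart from all others with no overlap, as *Arntl* alone also did. The log2 difference *Dbp* minus *Arntl* was -4.84 to -2.06 in the MT and 0.04 to 2.56 in the ZR libraries of sgInert. It was -3.45 to -0.6 in MT and 1.78 to 3.28 in unnumbered sgCebpa/b/d libraries, and -3.62 to -0.93 in MT and 1.01 to 2.29 in unnumbered sgLkb1 libraries. All MT values lie below all others, in each virus group and over the groups, while ZR and unnumbered values overlap. The zero of this difference has no meaning of its own, since CPM is not per length. Title series, sex and virus cannot be told apart where they coincide.

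**Figure D4:**
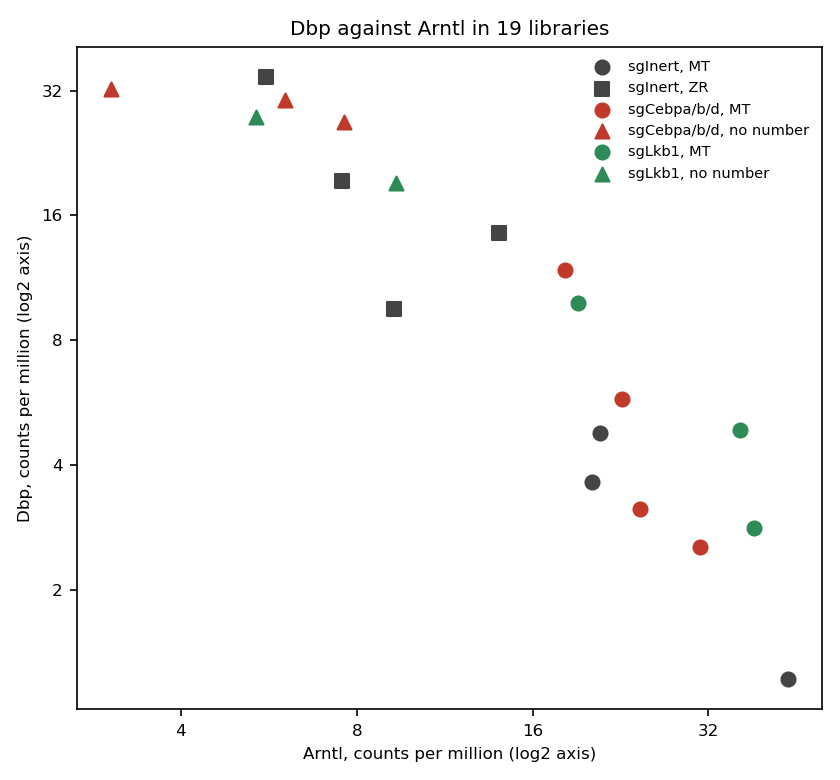
*Dbp* against *Arntl* in the 19 libraries, both in CPM on log2 axes, with color for the virus and shape for the title series. All MT libraries (circles) lie at the lower right, with *Arntl* at 18.2 CPM or more, and all ZR (squares) and unnumbered libraries (triangles) at the upper left, with *Arntl* at 14 CPM or less, whatever the virus.

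Libraries that share an animal were close to each other for some members, *Arntl* and *Nr1d2* among them. The 3 sgCebpa/b/d libraries of 1 animal spanned 0.44 log2 CPM for *Arntl*, and the pairs of sgInert and sgLkb1 libraries spanned 0.05 and 0.08, where the groups as a whole spanned 3.22, 2.9 and 2.76. *Nr1d2* spanned 0.12, 0.03 and 0.07 within these animals against 1.26, 2.24 and 1.04 in their groups. *Tef* in the sgLkb1 animal (1.26 of 2.2) and *Dbp* in the sgCebpa/b/d animal (1.09 of 3.51) were the widest. In the sgLkb1 animal *Cry1* spanned 0.81 of 1.33, *Per1* 0.69 of 1.26 and *Clock* 0.26 of 0.53. A range over the few libraries of an animal also tends to be smaller than that over a whole group. Each of these animals lies within the MT series, and the groups as a whole include the other series.

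Among the MT libraries alone, which all 3 virus groups hold, 3 *Per* genes passed against sgInert in sgCebpa/b/d and 2 of them in sgLkb1. In sgCebpa/b/d against sgInert 3 of 10 clock genes were higher and 0 lower, where 4.3% of the 13674 genes tested were higher (8.55% in either direction). In sgLkb1 against sgInert 2 of 10 were higher and 0 lower, where 3.61% of all genes were higher (6.97% in either direction). Between sgCebpa/b/d and sgLkb1 0 of 10 passed with edgeR, against 6.98% of all genes, while 3 had an unadjusted p under 0.05 and DESeq2 passed 1. Shares of all genes at an unadjusted p and with DESeq2 were not taken. The groups did not overlap for 4 and 3 of the 10 genes in the comparisons with sgInert, against 19.6% and 23.5% of all genes.

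*Per1* had the lowest adjusted p of the members in sgLkb1 against sgInert, and *Per2* had it in sgCebpa/b/d. The 3 *Per1* MT values of sgInert (11.2, 12 and 12.8 CPM) lie below the 4 of sgCebpa/b/d (18.5 to 27.7 CPM) and the 3 of sgLkb1 (25.8 to 41.7 CPM). *Per1* was 2.64-fold higher in sgLkb1 (log2 1.4, SE 0.23, edgeR adjusted p = 0.00151) and 1.9-fold higher in sgCebpa/b/d (log2 0.93, SE 0.22, edgeR adjusted p = 0.0154). Leaving out each of the 10 MT libraries in turn, *Per1* passed every time in sgLkb1 (highest edgeR adjusted p = 0.0106) and 8 of 10 times in sgCebpa/b/d, where it was lost without sgInert replicate 5 or replicate 7 (highest edgeR adjusted p = 0.0638). With libraries of an animal summed, which leaves 2 animals per group, it passed in sgLkb1 (log2 1.39, edgeR adjusted p = 0.0161) and not in sgCebpa/b/d (edgeR adjusted p = 0.0512).

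*Per3* was 2-fold higher in sgLkb1 (log2 1, SE 0.23, edgeR adjusted p = 0.0158) and 2.02-fold higher in sgCebpa/b/d (log2 1.01, SE 0.22, edgeR adjusted p = 0.0103) among the MT libraries. It did not pass in either with animals summed (edgeR adjusted p = 0.129 and 0.0997), and in sgLkb1 it was lost without sgInert replicate 2 or 7 or sgLkb1 replicate 2 or 3. *Per2* was 1.72-fold higher in sgCebpa/b/d (log2 0.79, SE 0.15, edgeR adjusted p = 0.00543) and passed with animals summed (edgeR adjusted p = 0.0415). In sgLkb1 it differed from sgInert by 0.28 (SE 0.16, edgeR adjusted p = 0.366), and it was higher in sgCebpa/b/d than in sgLkb1 by 0.51 (SE 0.15) without passing (edgeR adjusted p = 0.0606), although these groups do not overlap. *Arntl* differed from sgInert by 0.14 (SE 0.32) in sgLkb1 and -0.23 (SE 0.31) in sgCebpa/b/d, *Dbp* by 0.82 (SE 0.64) and 0.83 (SE 0.61), and neither passed in either group.

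Without the 5 unnumbered libraries but with the ZR libraries kept, 0 of 10 clock genes passed with edgeR in each virus comparison and 0 had an unadjusted p under 0.05, where 6.26%, 3.73% and 3.23% of all genes tested passed in sgCebpa/b/d and sgLkb1 against sgInert and between the targeted groups. *Dbp* then differed from sgInert by -1.06 in sgCebpa/b/d and -1.07 in sgLkb1 on the log2 scale. With all libraries and the title series in the model, 3 of 10 passed in sgCebpa/b/d (*Per1*, *Per2* and *Per3*) and 2 of 10 in sgLkb1 (*Per1* and *Per3*), each higher than in sgInert, where 6.62% and 4.7% of all genes passed in either direction. In that model the ZR libraries, all sgInert, are taken up by their own term. The sgInert level then rests on its 3 MT libraries, so this is not a result apart from that of the MT libraries. Sex was not balanced among the MT libraries, where 1 of 3 sgInert libraries was male and all others were female.

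Other clock genes were read from a list of 17, of which 15 were tested. In the virus comparisons over 19 libraries 0 were higher and 1 lower in sgCebpa/b/d against sgInert, 0 passed in sgLkb1 against sgInert, and 0 were higher and 1 lower in sgCebpa/b/d against sgLkb1, with medians of 0.08, 0.36 and -0.14 on the log2 scale. *Rora*, which encodes the activator that competes with the REV-ERBs for ROR elements, was the gene lower in sgCebpa/b/d, by -0.79 (SE 0.14, edgeR adjusted p = 0.000792). It had 124 to 142 CPM in the MT and 201 to 270 CPM in the ZR libraries of sgInert, and 86.1 to 116 CPM in MT and 98.3 to 123 CPM in unnumbered sgCebpa/b/d libraries. Its levels also differed by series within sgInert (log2 0.75, edgeR adjusted p = 0.00497), and among MT libraries the difference of -0.36 did not pass (edgeR adjusted p = 0.0813).

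*Bhlhe41*, which encodes DEC2, a repressor of the ARNTL and CLOCK dimer, differed by -2.4 between sgCebpa/b/d and sgLkb1, with the lower level in the former (SE 0.65, edgeR adjusted p = 0.0287). Among MT libraries it had 0 to 2.53 CPM in sgCebpa/b/d, 3.1 to 8.9 CPM in sgInert and 6.67 to 10.6 CPM in sgLkb1. There the sgCebpa/b/d level was below that of sgInert (log2 -2.37, SE 0.68, edgeR adjusted p = 0.045) and that of sgLkb1 (log2 -3.06, SE 0.67, edgeR adjusted p = 0.0132), at counts of 0 to 12 per sgCebpa/b/d library. Its related repressor gene *Bhlhe40* was higher in sgLkb1 than in sgInert among MT libraries (log2 0.75, SE 0.14, edgeR adjusted p = 0.00398), at 197 to 223 against 109 to 148 CPM. These are the only genes of the list that passed in a comparison of virus groups among MT libraries.

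Between title series, 2 of the 15 other clock genes were higher and 1 lower in sgInert, 1 was higher and 1 lower in sgCebpa/b/d, and 0 passed in sgLkb1. *Npas2*, a close relative of *Clock* that can take its place beside ARNTL, followed *Arntl*. It had 20.4 to 36.8 CPM in the MT and 0.233 to 7.2 CPM in the ZR libraries of sgInert, 5.72 to 17.7 and 0.32 to 2.88 CPM in the MT and unnumbered libraries of sgCebpa/b/d, and 16.4 to 24.9 and 6.11 to 8.01 CPM in those of sgLkb1. Its log2 differences were -2.57 (SE 0.57, edgeR adjusted p = 0.0218), -2.85 (SE 0.65, edgeR adjusted p = 0.0101) and -1.5 (SE 0.67, edgeR adjusted p = 0.795). The others that passed were *Bhlhe40* (log2 0.74) and *Rora* in sgInert and *Bhlhe41* (log2 2.5) in sgCebpa/b/d, all higher than in MT libraries.

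Of 6 genes known to be rhythmic in many tissues, all tested, *Wee1*, which encodes a kinase that holds back entry into mitosis, was the one that passed between virus groups. It was lower in sgLkb1 than in sgInert (log2 -0.91, SE 0.27, edgeR adjusted p = 0.0453) and higher in sgCebpa/b/d than in sgLkb1 (log2 0.95, SE 0.27, edgeR adjusted p = 0.0355). Among MT libraries it had 19.2 to 27.6 CPM in sgLkb1, 34.3 to 66.1 CPM in sgInert and 57.4 to 62.7 CPM in sgCebpa/b/d, and the differences were -1.18 (SE 0.22, edgeR adjusted p = 0.00358) and 1.35 (SE 0.21, edgeR adjusted p = 0.0011). The MT groups do not overlap in these comparisons, whereas the unnumbered sgLkb1 libraries had 47.7 and 49.8 CPM. Between series, 1 of the 6 was higher in sgInert (*Por*, log2 0.78), 1 in sgCebpa/b/d (*Tsc22d3*, log2 1.09) and 0 passed in sgLkb1.

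The pattern of *Dbp* over the libraries was used to look for other genes like it. Values were log2 CPM with the mean of each virus group subtracted, over 19 libraries that share animals and title series, and the Pearson correlations are descriptions without a test. Among members the correlation with *Dbp* was 0.947 for *Nr1d2*, 0.889 for *Per2*, 0.882 for *Tef*, 0.86 for *Per3*, 0.769 for *Per1* and 0.298 for *Nr1d1*. It was -0.94 for *Arntl*, -0.754 for *Clock* and -0.227 for *Cry1*. Among 8969 other genes the highest were *BC018473* (0.881), *Glul* (0.88), *Ralgapa2* (0.874), *Prdx6* (0.874) and *Slc41a2* (0.861), and the lowest were *Inpp4b* (-0.9), *Rnf114* (-0.868), *Npas2* (-0.854), *Gpsm2* (-0.834) and *Zmym4* (-0.824). *Npas2* is thus the only clock gene among these 10, and it was not a member.

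Subtracting the mean of each virus and title series set instead leaves only differences inside a set. The correlation with *Dbp* was then 0.813 for *Nr1d1*, 0.747 for *Nr1d2*, 0.493 for *Per2*, 0.42 for *Tef*, 0.11 for *Per3*, 0.103 for *Per1* and -0.761 for *Arntl*. For *Cry1* it was -0.439 and for *Clock* -0.459. *Nr1d1* was thereby close to *Dbp* inside the sets and not across them, and *Per1* and *Per3* the other way round. Inside the sets few animals carry such values. Among MT libraries, sgCebpa/b/d replicate 2 and sgLkb1 replicate 4 had the highest *Nr1d1* of their groups (96.8 and 110 CPM). They also had the highest *Dbp* there (11.8 and 9.83 CPM), and each came from another animal than the rest. Of the genes outside the members, *Slc41a2* had 0.692, *Rnf114* -0.58 and *Inpp4b* -0.473.

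*Inpp4b*, which encodes a phosphatase of phosphoinositides, had 746 to 1110 CPM in the MT and 290 to 412 CPM in the ZR libraries of sgInert. It had 703 to 891 and 356 to 463 CPM in the MT and unnumbered libraries of sgCebpa/b/d, and 437 to 540 and 232 to 295 CPM in those of sgLkb1. *Glul*, which encodes glutamine synthetase, had 20.4 to 53.3 and 76.6 to 113 CPM in the MT and ZR libraries of sgInert, and its 5 unnumbered values lie between 51.6 and 69.8 CPM. *Prdx6*, which encodes an antioxidant enzyme abundant in lung epithelium, had 127 to 209 CPM in MT and 195 to 311 CPM in all other libraries. Since these genes were chosen for this pattern, their differences between series are descriptions.

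**Figure D5:**
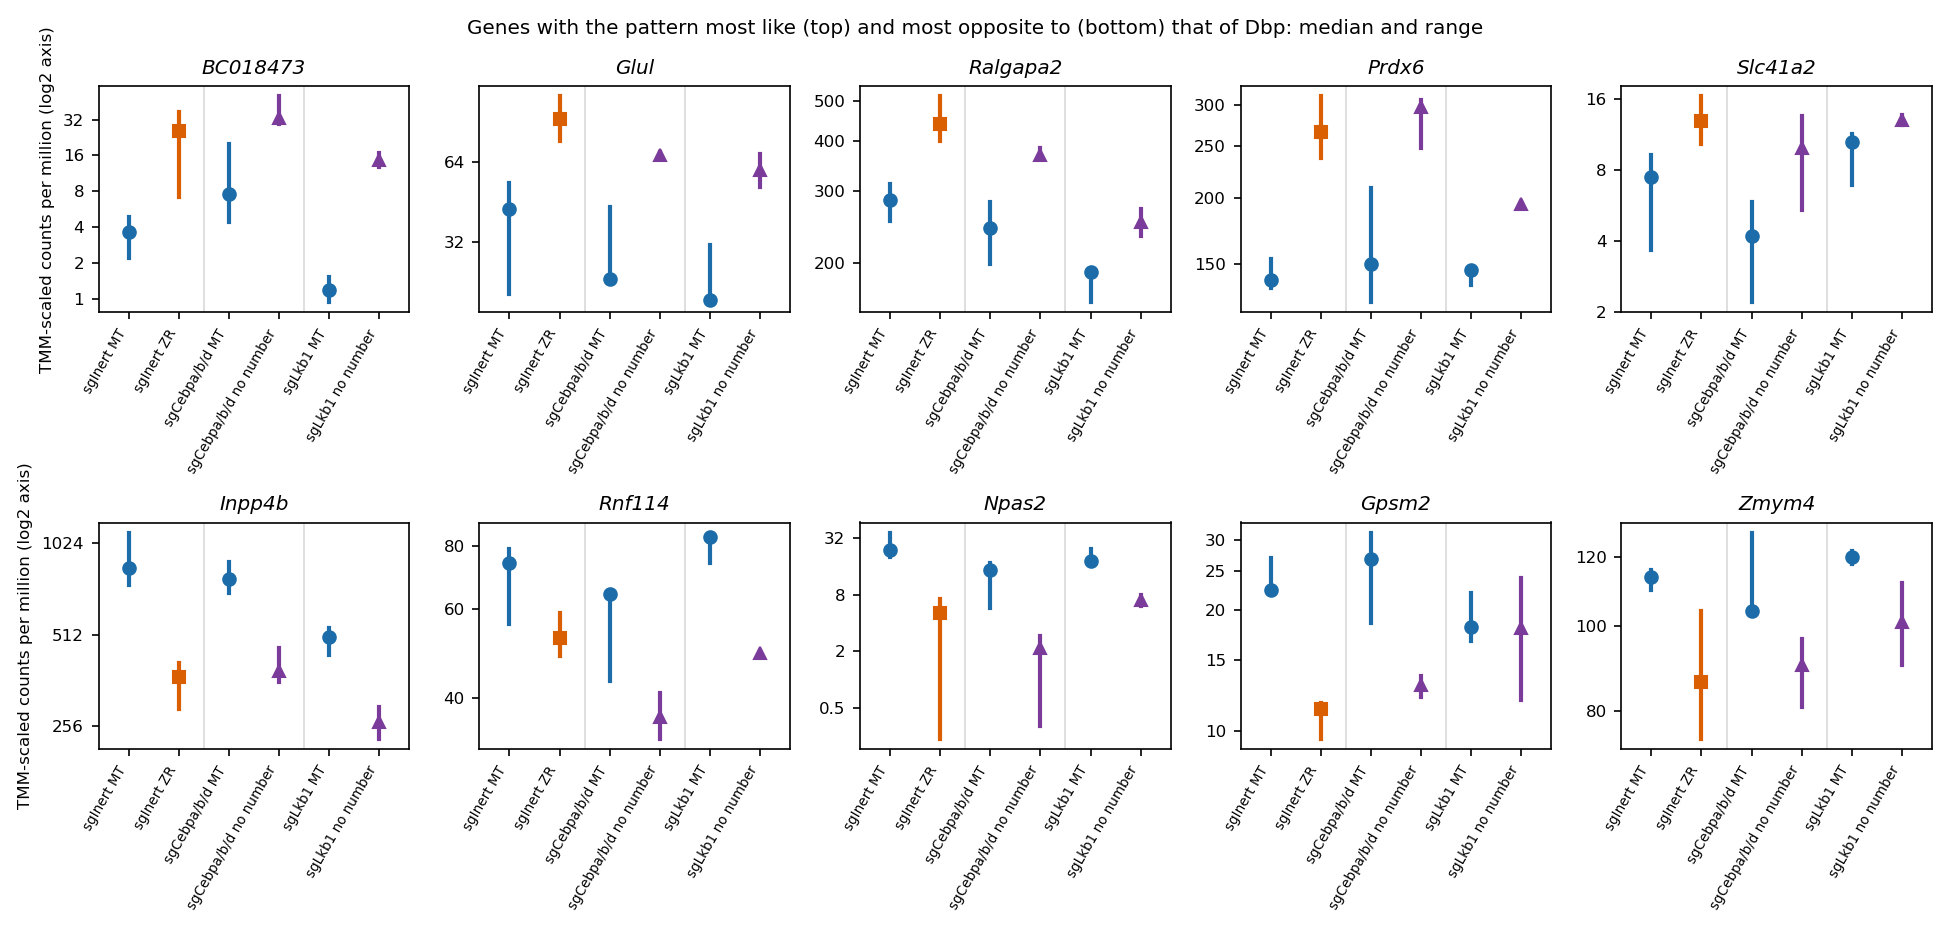
Median (symbol) and range (bar) of CPM on a log2 axis, by virus and title series, for the 5 genes with the highest (top) and the 5 with the lowest (bottom) correlation with *Dbp*, members left out. *BC018473* lies lower and *Inpp4b* higher in the MT than in the other libraries of each virus group. Among MT libraries the medians of *BC018473*, *Glul*, *Ralgapa2*, *Gpsm2* and *Inpp4b* are lowest in sgLkb1.

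Inducible genes were read beside the clock genes, since *Per1* responds to glucocorticoids and to immediate early signals. Of 6 glucocorticoid response genes, *Per1* included, 1 was higher (*Sgk1*, log2 0.94) and 1 lower (*Zbtb16*, log2 -3.63) in sgLkb1 against sgInert over all libraries, and 0 passed in sgCebpa/b/d. Among MT libraries 1 was higher in sgCebpa/b/d, and 1 was higher and 1 lower in sgLkb1, the gene that was higher being *Per1* in both. Between series 1 of the 6 was higher in sgInert (*Per1*), 2 were higher in sgCebpa/b/d (*Per1* and *Tsc22d3*) and 0 in sgLkb1, with 0 lower in each. Log2 differences of the other genes of the list ran from -0.33 for *Sgk1* to 1.92 for *Zbtb16* between series of sgInert. With *Per1* counted in, the median log2 differences of the list were 0.75, 0.62 and 0.73, against 0.02, 0.02 and 0 over all genes. The list, *Per1* included, summed to 169 to 209 CPM in MT and 138 to 276 CPM in ZR libraries of sgInert. Its sum was 188 to 233 and 276 to 372 CPM in MT and unnumbered sgCebpa/b/d libraries, and 208 to 224 and 328 to 343 CPM in those of sgLkb1. Of 8 immediate early genes, 5 were higher in sgCebpa/b/d (*Fos*, *Fosb*, *Jun*, *Junb* and *Egr1*, log2 0.82 to 1.52) and 1 in sgLkb1 (*Fos*, log2 1.18) over all libraries. Among MT libraries *Fosb* was higher in sgCebpa/b/d (log2 1.15) and *Fos* (log2 0.68) and *Fosb* (log2 1.27) in sgLkb1, beside the differences in *Per1*. Their part in the result was not tested.

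The summed level of the 8 immediate early genes moved with title series in different directions. It was 4250 to 5000 CPM in MT and 692 to 3780 CPM in ZR libraries of sgInert, 4600 to 6060 CPM in MT and 10200 to 10600 CPM in unnumbered libraries of sgCebpa/b/d, and 4880 to 7040 CPM in MT and 4530 to 6260 CPM in unnumbered libraries of sgLkb1. Between series *Fos* was lower in ZR libraries (log2 -1.31), *Jun* (log2 1.03) and *Junb* (log2 1.24) were higher in unnumbered sgCebpa/b/d libraries, and 0 of 8 passed in sgLkb1. *Per2* and *Per3* were higher than in MT libraries in all 3 virus groups, and the part of inducible genes in this was not tested.

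Markers of other cells moved with some of the same comparisons. In bulk samples fewer cells of a type and less RNA per cell cannot be told apart. The 5 endothelial markers summed to 15.3 to 44.4 CPM in MT and 150 to 209 CPM in unnumbered sgCebpa/b/d libraries, and 5 of 5 were higher there, while 0 of 5 passed between series in sgInert (16.6 to 39 in MT and 6.52 to 27.9 CPM in ZR libraries) and in sgLkb1 (39.6 to 84.6 and 89 to 153 CPM). Of 8 immune markers, of which 6 were tested, 4 were higher and 1, *Lyz2*, was lower in unnumbered sgCebpa/b/d libraries, 1 (*Ptprc*) was higher in unnumbered sgLkb1 libraries, and 0 passed between ZR and MT. Immune markers summed to 477 to 933 CPM in unnumbered and 1580 to 2740 CPM in MT sgCebpa/b/d libraries, 3750 to 5700 and 3030 to 4940 CPM in sgLkb1 libraries, and 12000 to 18300 CPM in ZR and 15300 to 17500 CPM in MT sgInert libraries, mostly through *Lyz2*, which ATII cells also express. *Adgre1*, which encodes F4/80, was at 0 in all numbered and at 1.69 to 3.58 CPM in unnumbered libraries, and the T cell gene *Cd3e* ran from 0 to 1.6 CPM over all libraries. Of 8 ATII markers 5 were lower in unnumbered sgCebpa/b/d libraries, and 0 passed between series in the other groups.

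Fibroblast markers moved with the sgInert series and with the MT comparisons. The 5 genes summed to 6.56 to 16.8 CPM in MT and 37.5 to 110 CPM in ZR libraries of sgInert, where *Col1a1* (log2 3.85) and *Col1a2* (log2 4.07) were higher. They summed to 47.2 to 171 CPM in MT sgCebpa/b/d and 65.9 to 177 CPM in MT sgLkb1 libraries, where 4 of 5 were higher than in MT sgInert libraries in each. In unnumbered libraries they summed to 131 to 194 CPM in sgCebpa/b/d and 146 to 184 CPM in sgLkb1, and 0 of 5 passed against MT. No list of cell type markers passed in the same direction between series in all 3 virus groups. This does not decide whether such cells differed, since only 0.179% of all genes passed between series in sgLkb1. Fibroblast markers had a positive log2 difference from MT for 5 of 5 genes in every virus group. For the tested immune markers this held for 4, 5 and 6 of 6 (sgInert, sgCebpa/b/d, sgLkb1). Endothelial markers gave 1, 5 and 5 of 5, and ATII markers 5, 0 and 3 of 8. The part of these markers in the clock gene results was not tested.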

How the data were processed

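RNA of 19 sorted samples was measured as paired reads from Trio RNA-Seq libraries. The submitters' processing notes name STAR 2.6.1d, RSEM 1.2.30, DESeq2 1.26.0 and mm10. The authors deposited RSEM expected counts per gene, which need not be whole and carry no normalization, and TPM, the deposited estimates scaled for gene length. The deposited normalized values and the table of the authors' fold changes and p-values between groups were not used. Groups and sex came from the labels, title series and animals from the titles. A further allele that all groups share is not reported here.

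Expected counts were rounded and fitted with edgeR 4.0.16 (R 4.3.3, TMM, glmQLFit, glmQLFTest) after filterByExpr (minimum count 10, minimum total count 15). Virus comparisons used a model of the 3 groups, series comparisons a model of virus by title series, both over all 19 libraries without covariates, and the MT comparisons a fit of 10 libraries. Log2 CPM used a prior count of 2. The fold threshold of the study was not applied. Figures used Python 3.11.15, pandas 2.3.3 and matplotlib 3.10.9. Alternatives used DESeq2 1.42.0, limma 3.58.1 on log2(TPM + 1), RLE scaling, no filter, effective lengths, sex, title series, the libraries entered, animals summed, a replicate block and leaving out each library.

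Members and lists (other clock genes, rhythmic genes, glucocorticoid response, immediate early genes, targeted genes and cell markers) were chosen with earlier results of these data known. Named were the members, listed genes past the threshold and the 5 genes most and least correlated with *Dbp* at an average log2 CPM above 3; *Por*, *Tsc22d3* and the neighbours of members were named after their values were seen. Coordinates come from RefSeq windows of GRCm38.p6, and all 10 members were found in the GENCODE annotation of GRCm38. Tested on simulated counts, the fit called 45.8% of genes changed by a log2 fold of 1 and 76.3% at 2 in sgCebpa/b/d against sgInert (13728 genes), and 46.9% and 72.2% in sgLkb1 against sgInert (13673 genes). The simulated libraries were independent, without shared animals or title series, and the changed genes were drawn at random. These shares therefore need not hold for the clock genes. Pairs of libraries of a group differed by a chi-square per gene of 7.34 to 78.7, so none was a copy. Nothing states that libraries without an animal number came from separate mice, and p-values measure the spread between these libraries, which is partly that within animals. Counts of reads from amplified libraries give counting error only.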

Additional observations from a re-analysis of the deposited data

Results flagged for a closer look

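*Nr1d1* had 110 CPM in sgLkb1 replicate 4, an MT library, while the other 4 sgLkb1 libraries had 55.1 to 66 CPM, so that this library lies far from the rest of its group. It was the only one of 30 sets of values (10 genes in 3 virus groups) to stand apart in this way, and chance alone flags about 1 in 20 groups. The library came from a different animal than the other MT libraries of sgLkb1, which share an animal.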

How the results depend on the processing

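Counts of clock genes past the threshold moved with the model and the libraries entered, and the cause was not tested. Besides the main fits, the share of all genes that passed was taken with title series, among MT libraries and without the unnumbered libraries. For the other settings it was not taken, so their counts do not show whether clock genes moved more than all genes did. In sgCebpa/b/d against sgInert the count of 0 became 3 with title series in the model and 3 among MT libraries, which both take the sgInert level from its MT libraries. In sgLkb1 against sgInert the count of 0 became 1 with DESeq2, 1 without the filter, 1 with limma on TPM, 1 with sex in the model, 2 with title series and 2 among MT libraries. In sgCebpa/b/d against sgLkb1 it stayed at 0 in all 12 alternatives. The 2 of unnumbered against MT libraries within sgLkb1 became 4 with DESeq2, 6 without the filter, 4 with sex in the model and 1 with animals summed, and the 7 of ZR against MT within sgInert became 4 with animals summed. Among MT libraries the 3 in sgCebpa/b/d and the 2 in sgLkb1 against sgInert each became 1 with animals summed, and the 0 between the targeted groups became 1 with DESeq2. Leaving out each library in turn gave 0 to 1 in sgCebpa/b/d (1 without sgInert replicate 4), 0 to 1 in sgLkb1 (1 without sgInert replicate 3 or 4), 0 to 0 between them, 4 to 7 within sgInert, 6 to 8 within sgCebpa/b/d, 1 to 4 within sgLkb1, and among MT libraries 2 to 4, 1 to 2 and 0 to 0.

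Log2 differences of single members that changed sign were all of genes that had not passed. With effective lengths these were *Nr1d1* in sgCebpa/b/d against sgInert (0.04) and *Nr1d2* in sgCebpa/b/d against sgLkb1 (0.03). With limma on TPM, which moved the median of all genes by 0.19 in sgLkb1 against sgInert, -0.18 in sgCebpa/b/d against sgLkb1 and -0.15 between series of sgCebpa/b/d, they were *Nr1d1* in sgCebpa/b/d against sgInert (0), *Nr1d1* (0.15) and *Tef* (0.01) in sgLkb1 against sgInert, *Per3* (-0.15) and *Nr1d1* (-0.15) in sgCebpa/b/d against sgLkb1 and *Cry1* between series of sgCebpa/b/d (-0.01). With sex in the model they were *Nr1d2* in sgCebpa/b/d (0) and *Arntl* (-0.27) and *Tef* (0.55) in sgLkb1 against sgInert, *Per2* (-0.09), *Per3* (-0.55), *Dbp* (-0.38) and *Tef* (-0.09) in sgCebpa/b/d against sgLkb1 and *Cry1* between series of sgCebpa/b/d (-0.18). With title series they were *Cry1* (-0.32) and *Tef* (0.41) in sgLkb1 against sgInert, and among MT libraries *Cry1* (-0.45) and *Tef* (0.56) there and *Nr1d1* (-0.35) in sgCebpa/b/d against sgLkb1. Without the unnumbered libraries they were *Per3* (-0.58), *Arntl* (0.48), *Nr1d2* (-0.56), *Dbp* (-1.06) and *Tef* (-0.5) in sgCebpa/b/d and *Per2* (-0.47), *Per3* (-0.59), *Cry1* (-0.16), *Nr1d1* (0.01), *Nr1d2* (-0.34) and *Dbp* (-1.07) in sgLkb1 against sgInert, and *Nr1d1* (-0.36) between them. With animals summed they were *Clock* (-0.02) and *Nr1d1* (0.21) in sgCebpa/b/d and *Nr1d1* (0.02) in sgLkb1 against sgInert and *Nr1d2* (0.06) between them. Leaving out single libraries, signs changed for *Arntl* (-0.36 to 0.3), *Clock* (-0.01 to 0.11), *Nr1d1* (-0.16 to 0.05) and *Nr1d2* (-0.11 to 0.23) in sgCebpa/b/d, *Cry1* (-0.14 to 0.24), *Nr1d2* (-0.09 to 0.27), *Dbp* (-0.43 to 0.54) and *Tef* (-0.32 to 0.15) in sgLkb1, *Per3* (-0.12 to 0.46), *Nr1d1* (-0.05 to 0.28) and *Nr1d2* (-0.17 to 0.11) between them, *Cry1* between series of sgCebpa/b/d (-0.33 to 0.32) and *Nr1d1* between those of sgLkb1 (-0.49 to 0.03).

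With the replicate block, 0 clock genes passed in each virus comparison, and signs changed for *Arntl* (0) and *Tef* (0.02) in sgLkb1 against sgInert and *Per3* (-0.04) and *Nr1d1* (-0.02) in sgCebpa/b/d against sgLkb1. Libraries with the same number did not deviate together (17 pairs, correlations -0.147 to 0.232), so the numbers do not pair them. Values of members were tallied over comparisons and settings, where alternatives to the MT fit entered only the members that had passed in it. Of these values, 1607 kept their direction and their side of the threshold, 93 changed sign, 33 came to pass and 37 ceased to. Counts of 5 to 202 for *Dbp* and 26 to 173 for *Cry1* per library limit what can be seen of these genes.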
